A study of Caenorhabditis elegans with 8 samples.

Results

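The muscle myosin chains of *C. elegans* were examined in whole embryos after knockdown (KD) of *ztf-11*, a zinc finger transcription factor of the Myt1 family that is expressed in neuronal precursors. The set was given as a list of gene symbols, chosen with earlier results of these data known, and holds 8 genes. These are the pharyngeal heavy chains *myo-1*, *myo-2* and *myo-5*, the body-wall heavy chains *myo-3* and *unc-54*, and the light chains *mlc-1*, *mlc-2* and *mlc-3*. Each gene was represented by the transcript with the highest mean raw count among the 50606 RefSeq transcripts counted. Each of the 8 had 1 transcript with its symbol in the counts, and all 8 were among the 14328 transcripts that passed the filter on low counts.

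The 4 *ztf-11* KD libraries (called KD below) came from embryos whose mothers were fed, as synchronized L1 larvae and for 64 hr at 20°C, bacteria making dsRNA against *ztf-11*. The 4 control libraries came from embryos of mothers fed with the empty vector L4440. All 8 were independent cultures of one strain, TV23837, which carries *ztf-11::gfp*, the RNAi-sensitizing mutation *eri-1(mg366)* and the transgenes oxIs322 and ynIs49. oxIs322 is a marker in which promoters of *myo-2* and *myo-3* drive mCherry, and a contribution of its RNA to the counts of these 2 genes was not tested. Eggs were kept in M9 for 3 hr before RNA was extracted, so each library is a mixture of embryos that were not staged one by one. In such whole-embryo RNA, a change in the number of muscle cells and a change in the RNA per muscle cell cannot be told apart.

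A muscle myosin is a hexamer of paired heavy chains, each carrying an essential and a regulatory light chain, and many of them bundle into the thick filament of the sarcomere. *C. elegans* uses separate heavy chain genes for its striated body-wall muscle, which moves the animal, and for the pharynx, the pump through which it feeds. In body-wall thick filaments the MYO-3 protein (myosin A) lies at the centre and UNC-54 (myosin B), the main heavy chain, forms the arms. MYO-1 and MYO-2 are the corresponding heavy chains of pharyngeal muscle. *mlc-1* and *mlc-2* encode near-identical regulatory light chains and *mlc-3* encodes the essential light chain, and these light chains serve body-wall and pharyngeal muscle alike. Muscle myosin genes are switched on in embryos only after muscle cells have been specified.

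Summed counts were 39343105 to 44933700 per KD library and 39494873 to 45609675 per control library. Levels below are CPM, counts per 1000000 counts of a library whose size was scaled by edgeR's TMM method, unless stated otherwise. *ztf-11* itself stood at 9.42 to 14.7 CPM in KD embryos and at 31.2 to 68.4 CPM in control embryos, with no overlap (p = 0.0286 in a two-sided exact permutation test, which can give no smaller value with 4 libraries against 4). On the first principal component of all transcripts tested, which held 54.7% of the variance, the groups overlapped, and control replicate 2 lay farthest from the rest at -116, against -50.4 to 83.3 in the other 7 libraries.

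All 8 myosin chains had higher mean levels in KD embryos than in control embryos, by 1.57-fold to 3.06-fold. The 3 pharyngeal heavy chains showed the larger differences, between 2.40-fold and 3.06-fold. The body-wall heavy chains differed by 1.65-fold and 2.02-fold, and the light chains by 1.57-fold to 1.76-fold. The log2 fold change was above 0 for 8 of 8, where 49.2% of transcripts had one above 0, and over 1 for 4 of 8, where 9.45% had one over 1. No member reached the threshold of the quasi-likelihood test of edgeR, an adjusted p under 0.1 (0 of 8, where 0.0% of all transcripts reached it), and the lowest adjusted p of any transcript was 0.262. An unadjusted p under 0.05 was found for 8 of 8, where 12.8% of all transcripts tested had one and 8.8% had one in this direction. The 8 were chosen with earlier results of these data known and varied together over the libraries, so they are not 8 separate observations. For 0 of the 8 did the groups fail to overlap, a condition that 3.61% of all transcripts met with the KD libraries on top. DESeq2 gave an adjusted p under 0.1 for 4 of 8, the 3 pharyngeal heavy chains and *unc-54*, where it called 3.21% of transcripts and 2.82% in this direction. The same 4 passed in DESeq2 on transcripts with at least 1 count, which called 2.64% (2.34% higher in KD), and *myo-1* and *unc-54* passed in edgeR's likelihood ratio test, which called 1.68% (1.52% higher in KD). The number with an unadjusted p under 0.05 depended on single libraries and fell to 5 of 8 without KD replicate 2 and to 5 of 8 without KD replicate 4.

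**Figure D1:**
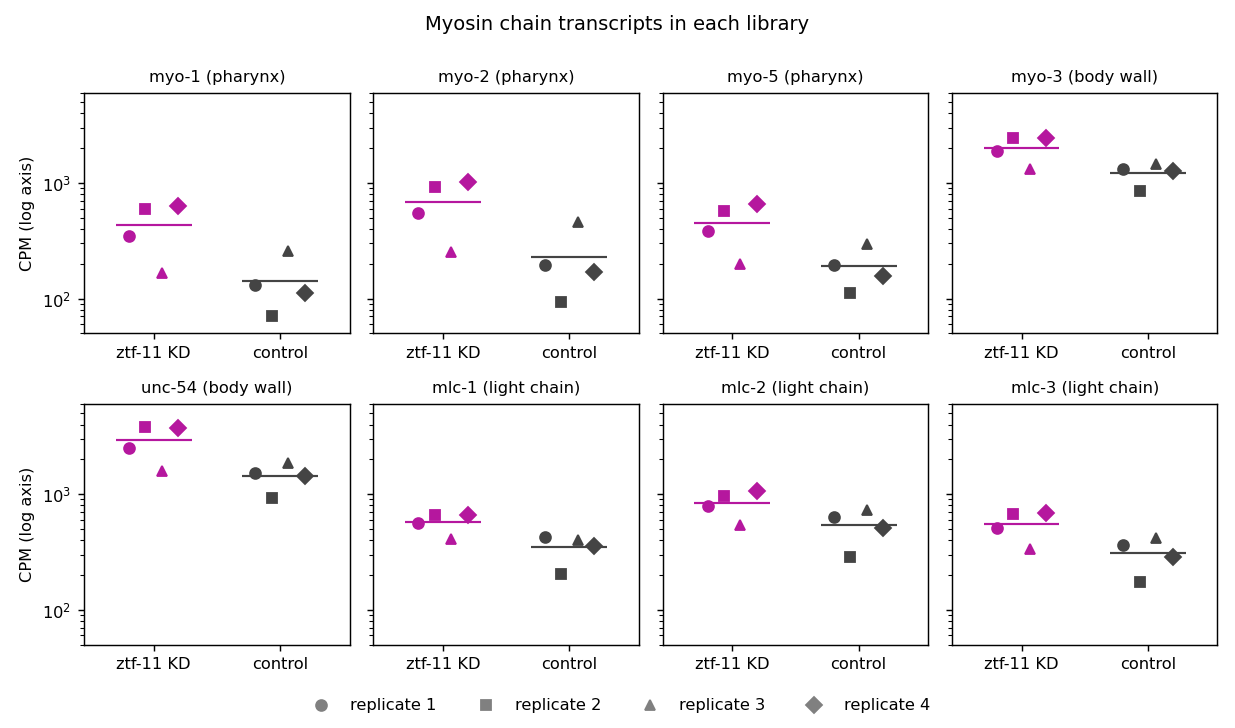
CPM on a log axis for each of the 8 myosin chains, with KD libraries on the left and control libraries on the right of each panel. Each point is a library, its shape the replicate number, and the horizontal line the mean of 4. In each panel 3 of the 4 KD libraries lie above the highest control library and replicate 3 lies among the controls.

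*myo-1* encodes one of the pharyngeal heavy chains. It stood at 348, 592, 165 and 635 CPM in KD replicates 1 to 4, and at 130.5, 70.1, 258 and 111 CPM in control replicates 1 to 4. KD replicates 1, 2 and 4 lay above all controls, while KD replicate 3 was lower than control replicate 3, so the groups overlapped. Its means were 435 ± 220.1 CPM in KD embryos, against 142 ± 81.1 CPM in control embryos (SD, n = 4 each). The log2 fold change was 1.61 ± 0.50 (SE), the largest of the 8, and the adjusted p was 0.381 by edgeR and 0.0244 by DESeq2.

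*myo-2*, whose promoter is widely used to mark pharyngeal muscle, had the highest mean of the 3 pharyngeal chains, in counts and per kb of exon. It had 551, 923, 252 and 1022 CPM in KD replicates 1 to 4, against 196, 93.7, 462 and 168 CPM in control replicates 1 to 4. The libraries fell in the same order as for *myo-1*, and the groups overlapped in the same way. The spread was wide within both groups, with the highest library 4.06 times the lowest in KD and 4.93 times in control embryos. The 4 libraries averaged 687 ± 354 CPM in KD and 230.1 ± 160.4 CPM in control embryos (SD). This gave a log2 fold change of 1.58 ± 0.56 (SE), for which the adjusted p was 0.383 by edgeR and 0.0504 by DESeq2.

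*myo-5*, the last of the pharyngeal chains, was at 387, 574, 199.7 and 656 CPM in KD replicates 1 to 4, and at 193, 111, 297 and 155 CPM in control replicates 1 to 4. Again only KD replicate 3 lay within the range of the controls. Its range was narrower than that of *myo-1* and *myo-2*, with a largest to smallest ratio over the 8 libraries of 5.88, against 9.07 for *myo-1* and 10.9 for *myo-2*. The log2 fold change was 1.26 ± 0.40 (SE), and the adjusted p was 0.381 by edgeR and 0.0495 by DESeq2. With log2 CPM as the measure, the exact permutation test gave a two-sided p of 0.0571 for each of these 3 genes.

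*unc-54*, the main body-wall heavy chain, had the highest count of the 8 genes. Its level was 2513, 3815, 1587 and 3736 CPM in KD replicates 1 to 4, against 1520.3, 923, 1871 and 1448 CPM in control replicates 1 to 4. Here KD replicate 2 was the highest library and control replicate 2 the lowest, and KD replicate 3 fell between the 2 highest controls. With means of 2913 ± 1066 CPM in KD and 1441 ± 391 CPM in control embryos (SD, n = 4 each), *unc-54* had a log2 fold change of 1.02 ± 0.30 (SE), and the adjusted p was 0.367 by edgeR and 0.0574 by DESeq2.

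*myo-3*, whose product forms the centre of body-wall thick filaments, was the steadiest heavy chain. It stood at 1882, 2435, 1320.3 and 2442 CPM in KD replicates 1 to 4, and at 1314, 846, 1470.3 and 1268 CPM in control replicates 1 to 4. KD replicate 3 lay between control replicates 1 and 3, and the other KD libraries lay above all controls. Over the 8 libraries the highest was 2.89 times the lowest, the smallest such ratio of the 8 chains. The log2 fold change was 0.72 ± 0.22 (SE), and the adjusted p was 0.377 by edgeR and 0.127 by DESeq2. The exact permutation test gave a two-sided p of 0.0571 for *myo-3* and for *unc-54*.

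The regulatory light chain *mlc-1* was at 566, 664, 408 and 657 CPM in KD replicates 1 to 4, and at 426, 203, 403 and 357 CPM in control replicates 1 to 4. Its neighbour *mlc-2* was at 793, 971, 542 and 1056 CPM in KD replicates, against 629, 287, 723 and 505 CPM in control replicates. For both genes control replicate 2 was well below every other library and KD replicate 3 lay among the other controls. The log2 fold change was 0.73 ± 0.24 (SE) for *mlc-1*, with a two-sided exact permutation p of 0.0571. For *mlc-2* it was 0.65 (standard error 0.29), the smallest of the 8, with a two-sided exact permutation p of 0.114. Without control replicate 2 the *mlc-2* value was 0.43. The essential light chain *mlc-3* had 507, 668, 335 and 683 CPM in KD replicates 1 to 4, against 366, 175, 421 and 285 CPM in control replicates 1 to 4. KD replicate 3 lay below the 2 highest controls, *mlc-3* had a log2 fold change of 0.81 ± 0.29 (SE), and the two-sided exact permutation p was 0.0857. None of the 3 light chains passed in DESeq2, where the adjusted p was 0.146 for *mlc-1*, 0.282 for *mlc-2* and 0.16 for *mlc-3*.

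*mlc-1* and *mlc-2* lie next to each other on opposite strands in the WBcel235 annotation, and each encodes 170 residues. Because only uniquely mapped reads were counted, any stretch shared by both genes counts for neither, and their levels are uncertain to that extent. Exons of *mlc-1* overlap the gene *slc-17.1* on the opposite strand, whose 2 transcripts averaged 8.63 and 5.75 counts per library, against 19631 for *mlc-1*. Exons of *mlc-2* overlap C36E6.2 on the opposite strand, which had no value here. Whether the counting used strand is not given in the sources used here. The ratio of *mlc-2* to *mlc-1*, both per kb of exon, was 2.40 to 2.90 in KD and 2.54 to 3.23 in control libraries, so this ratio overlapped between the groups.

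**Figure D2:**
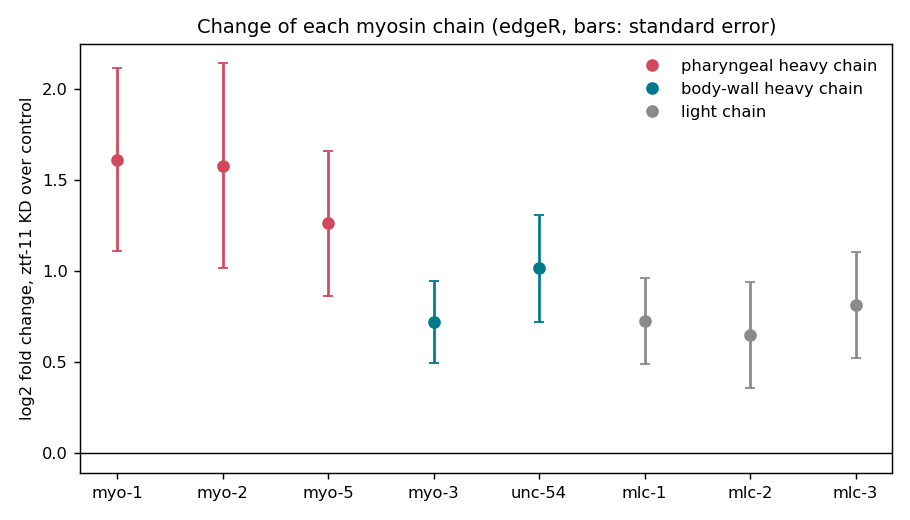
Log2 fold change of each myosin chain, KD over control embryos, with bars of 1 standard error derived from the F statistic of edgeR (n = 4 libraries each). The 3 pharyngeal chains lie between 1.26 and 1.61, the body-wall heavy chains at 0.72 and 1.02, and the light chains between 0.65 and 0.81.

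The comparison of pharyngeal with body-wall heavy chains was made as a difference of log2 values and is given as a description with no test. The mean log2 fold change of *myo-1*, *myo-2* and *myo-5* exceeded that of *myo-3* and *unc-54* by 0.62. In single libraries, the mean log2 CPM of the pharyngeal chains minus that of the body-wall heavy chains was -2.37, -2.16, -2.84 and -2.01 in KD replicates 1 to 4. It was -3.05, -3.29, -2.34 and -3.25 in control replicates 1 to 4. Control replicate 3 thus lay among the KD libraries, and each of the other 3 controls was below all KD libraries. Without control replicate 3 the difference between the 2 sets was 0.94, and with any other single library left out it was between 0.50 and 0.70. Counting the light chains with the body-wall chains gave 0.70. The light chains, set against the body-wall heavy chains in the same way, differed by -1.90 ± 0.11 in KD and -1.81 ± 0.18 in control libraries (SD, n = 4 each), less than their spread.

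**Figure D3:**
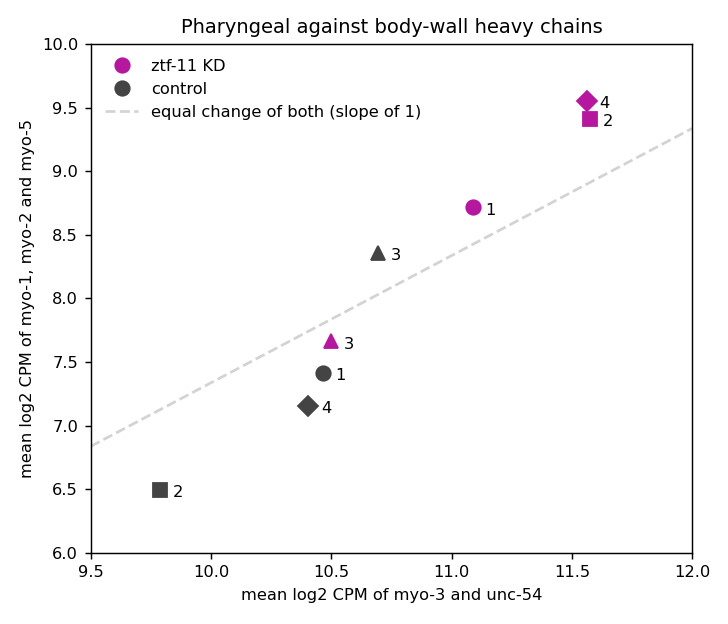
Mean log2 CPM of *myo-1*, *myo-2* and *myo-5* (vertical axis) against mean log2 CPM of *myo-3* and *unc-54* (horizontal axis) in each library, labelled by replicate number. The dashed line, through the mean of the 8 libraries, has a slope of 1, on which both sets would differ by equal folds. The pharyngeal mean spans 6.49 to 9.56 and the body-wall mean 9.79 to 11.6, so the libraries run more steeply than the line in both groups.

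The steeper range of the pharyngeal chains was present within each group as well as between them. Among the 4 KD libraries the SD of log2 CPM was 0.90 for *myo-1*, 0.92 for *myo-2* and 0.77 for *myo-5*, and it was 0.42 for *myo-3* and 0.60 for *unc-54*. Among the 4 control libraries it was 0.78, 0.95 and 0.59 for the pharyngeal chains in the same order, and 0.35 for *myo-3* and 0.43 for *unc-54*. Compared with the body-wall heavy chains, the pharyngeal genes thus had both the larger differences between groups and the larger spread between cultures of one group. For *mlc-1*, *mlc-2* and *mlc-3* the SD was 0.33, 0.43 and 0.48 in KD and 0.49, 0.59 and 0.56 in control libraries. In control libraries the spread of *myo-5* was thus close to that of *mlc-2*.

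To compare genes with each other, levels were divided by the exon length of each gene in the WBcel235 annotation, which runs from 0.641 kb for *mlc-2* to 6.457 kb for *myo-1*. The ranks of the light chains, and ratios of light to heavy chains, depend on these annotated lengths. *mlc-1* and *mlc-2* both have 510 coding bases, with exon lengths of 1.155 and 0.641 kb. In KD embryos the order from the highest was *mlc-2* (1311 ± 354 CPM per kb), *mlc-1* (497 ± 103), *unc-54* (469.5 ± 172), *mlc-3* (429.5 ± 128), *myo-3* (331 ± 87.6), *myo-2* (108 ± 55.9), *myo-5* (72.1 ± 32.3) and *myo-1* (67.4 ± 34.1; SD, n = 4 each). In control embryos the levels were 836 ± 294 for *mlc-2*, 300.5 ± 86.6 for *mlc-1*, 232 ± 63.1 for *unc-54*, 244 ± 83.6 for *mlc-3*, 201 ± 43.8 for *myo-3*, 36.3 ± 25.3 for *myo-2*, 30.1 ± 12.6 for *myo-5* and 22.04 ± 12.6 for *myo-1*. Steps of this order seen in all 8 libraries were *mlc-2* above *mlc-1* and *myo-3* above *myo-2*. The others were not separated: *mlc-1* was above *unc-54* in 6 of 8 libraries and *unc-54* above *mlc-3* in 5 of 8. *mlc-3* above *myo-3*, *myo-2* above *myo-5* and *myo-5* above *myo-1* each held in 7 of 8.

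Taking the 5 heavy chains per kb as one pool shows how its make-up varied. The pool summed to 916, 1343, 569 and 1366 CPM per kb in KD replicates 1 to 4, and to 542, 331, 703 and 509.6 in control replicates 1 to 4. *unc-54* held a near-constant share of it, 44.1% to 45.8% in KD and 42.9% to 45.8% in control libraries. *myo-3* held 29.3% to 38.0% in KD and 34.3% to 41.9% in control libraries, and the pharyngeal chains together held 17.05% to 26.6% in KD and 13.1% to 22.8% in control libraries. Where the pharyngeal share was high, that of *myo-3* was low. This follows from the near-constant share of *unc-54*, since the shares make up one whole. Both the pharyngeal and the *myo-3* share overlapped between the groups.

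**Figure D4:**
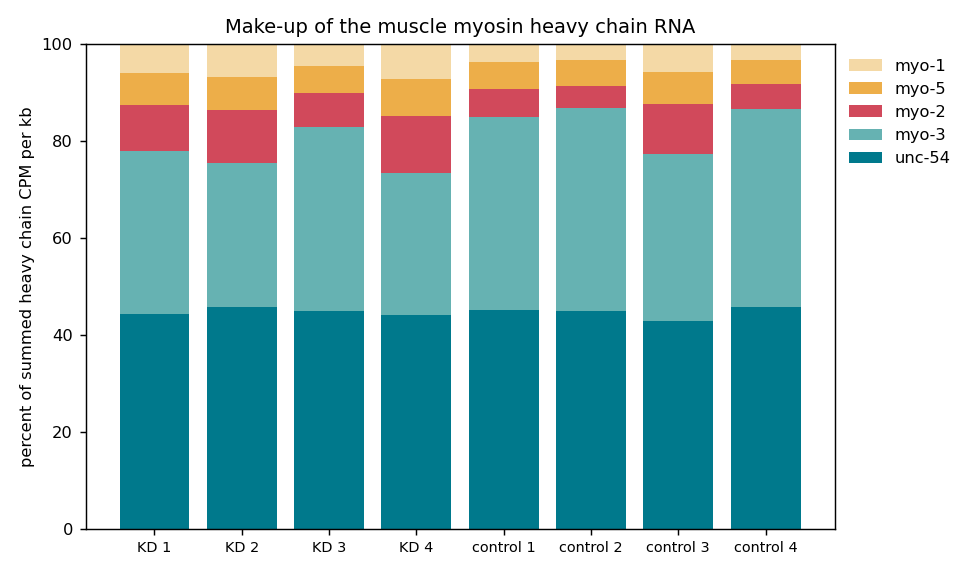
Percent of the summed heavy chain level (CPM per kb of exon) held by each of the 5 heavy chains, one stacked bar per library, KD libraries left of controls. *unc-54* takes 42.9% to 45.8% in all 8 libraries, and the pharyngeal chains take the most in KD replicate 4 (26.6%) and the least in control replicate 2 (13.1%).

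Ratios within each muscle type gave a further view. The ratio of *unc-54* to *myo-3*, the arm and centre myosins of body-wall filaments, was 1.31, 1.54, 1.18 and 1.51 in KD replicates 1 to 4 (per kb of exon). It was 1.14, 1.07, 1.25 and 1.12 in control replicates 1 to 4, so only KD replicate 3 and control replicate 3 crossed. The ratio of *myo-2* to *myo-1* was 1.56 to 1.64 in KD and 1.36 to 1.83 in control libraries, with the KD range inside that of the controls. The ratio of *myo-2* to *myo-5* was 1.25 to 1.60 in KD and 0.836 to 1.54 in control libraries. Across chain types, the level per kb summed over the 3 light chains was 1.95 to 2.57 times that summed over the 5 heavy chains in KD libraries and 2.30 to 3.02 times in control libraries. The essential light chain *mlc-3* alone stood at 0.390 to 0.461 per heavy chain in KD and at 0.415 to 0.529 in control libraries.

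Together the 8 chains took 0.752%, 1.05%, 0.477% and 1.09% of all counts in KD replicates 1 to 4, and 0.488%, 0.250%, 0.617% and 0.441% in control replicates 1 to 4. The 8 genes shared one pattern over the libraries. For *myo-1*, *myo-2*, *myo-5* and *myo-3* the order was the same in all 8 libraries, from KD replicate 4 down through replicates 2 and 1, control replicate 3, KD replicate 3 and control replicates 1, 4 and 2. Pearson r of log2 CPM between pairs of members ran from 0.924 for *myo-2* with *mlc-1* to 0.997 for *myo-1* with *myo-2*, with a median of 0.974 over 28 pairs (n = 8 libraries, which all pairs share). With the group means removed, r ran from 0.838 to 0.996. The pattern was not particular to the members. Of 12495 other transcripts with a symbol, 1248 (9.99%) had r over 0.9 with the mean of the pharyngeal chains, and 1088 (8.71%) with that of the body-wall heavy chains.

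By the rule for likeness, the 5 other genes most like the pharyngeal chains over the 8 libraries were Y53H1B.2 (r = 0.997), the galectin *lec-8* (0.996), *lips-17* (0.995), *lact-2* (0.995) and the neuropeptide gene *flp-14* (0.995). *lec-8* averaged 188 ± 91.1 CPM in KD embryos, against 58.5 ± 41.0 CPM in control embryos (SD, n = 4 each). Its log2 fold change of 1.68 ± 0.56 (SE) was close to that of *myo-1*. Those most like *myo-3* and *unc-54* were *ncs-3* (r = 0.994), *mmcm-1* (0.994), *unc-27* (0.993), *ifo-1* (0.992) and ZK1240.2 (0.991). *unc-27* encodes a troponin I of body-wall muscle, and *ifo-1* encodes an organizer of intestinal intermediate filaments. *unc-27* averaged 198 ± 52.5 CPM in KD embryos, against 109 ± 28.3 CPM in control embryos (SD, n = 4 each).

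Other genes of the thick filament and of muscle were read from lists of gene symbols. Of 8 genes for thick filament partners 3 were tested, all with log2 fold changes above 0 (median 0.41) and 2 with an unadjusted p under 0.05 in edgeR (0 of 3 without control replicate 2 or 3 or without KD replicate 2 or 4, and 1 of 3 without control replicate 4 or KD replicate 1). *unc-98*, an M-line protein that binds myosin, was at 60.8 to 75.4 CPM in KD and 36.4 to 58.5 CPM in control embryos. *unc-82*, a kinase needed to organize thick filaments, was at 5.75 to 9.95 CPM in KD and 1.97 to 5.37 CPM in control embryos. The groups of *unc-98* and of *unc-82* did not overlap, a condition that 3.61% of all transcripts met with the KD libraries on top. An unadjusted p under 0.05 with a higher level in KD was found for 8.8% of all transcripts in edgeR. *unc-45*, the chaperone that folds myosin heads, was at 442 ± 24.0 CPM in KD embryos, against 402 ± 28.1 CPM in control embryos, a log2 fold change of 0.14 ± 0.10 (SE). The remaining genes of this list could not be read. No transcript was matched to *unc-15* (paramyosin), *ttn-1* had 0 counts and *unc-22*, *unc-89* and *unc-96* averaged 6.0 counts or fewer per library on their most counted transcript. Over all lists, 48 of 50 genes with a single transcript in the counts passed the filter, and 13 of 28 genes with several.

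Non-muscle and other myosins were read from a further list. Of 17 such genes and regulators 14 were tested, 12 with log2 fold changes above 0 and 2 below, with a median of 0.27 beside -0.0088 over all transcripts tested and a median of 1.58 for the pharyngeal chains. A log2 fold change above 0 was found for 49.2% of all transcripts. An unadjusted p under 0.05 was found for 4 of the 14 in edgeR, all higher in KD, and 0 passed the threshold. Of all transcripts, 8.8% had such a p value in this direction. Without KD replicate 2 or KD replicate 4 the count of these 14 under 0.05 was 2. *nmy-1*, a non-muscle heavy chain used in the elongation of the embryo, was at 2084 to 2337 CPM in KD embryos and at 1575 to 1984 CPM in control embryos. Its groups did not overlap, as for 3.61% of all transcripts with KD on top, and its log2 fold change was 0.34 ± 0.11 (SE). *nmy-2*, the cytokinesis myosin, was at 481 ± 60.7 CPM in KD embryos, against 509 ± 120.4 CPM in control embryos. The non-muscle light chains *mlc-4* and *mlc-5* had log2 fold changes of 0.06 and 0.10 (standard error 0.10 for both). The other 3 with an unadjusted p under 0.05 were the heavy chain *myo-6* and the unconventional myosins *hum-5* and *hum-1*, and in each the groups overlapped, with 3 of 4 KD libraries above all controls. *myo-6* was at 72.0 ± 18.0 CPM in KD embryos, against 43.6 ± 15.5 CPM in control embryos (SD, n = 4 each), and its log2 fold change of 0.72 ± 0.27 (SE) was as large as those of *myo-3* and *mlc-1*. The log2 fold change was 0.52 (SE 0.19) for *hum-5* and 0.49 (SE 0.14) for *hum-1*. *nmy-3*, which was not on the list and was added after its values were seen, had 1.59 (SE 0.44), within the range of the pharyngeal chains. Its groups overlapped, with KD replicate 3 below control replicate 3, and its adjusted p was 0.359 by edgeR.

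Of the pharyngeal muscle list, 4 of 7 genes were tested. The pharyngeal troponin C *tnc-2* was at 67.9 ± 24.0 CPM in KD embryos, against 29.4 ± 10.8 CPM in control embryos, a log2 fold change of 1.21 ± 0.33 (SE), and the troponin I *tni-4* had 0.95 (SE 0.33). *pha-4*, the factor that specifies the pharynx, had a log2 fold change of 0.08 ± 0.17 (SE) and *ceh-34*, a homeobox gene of pharyngeal development, of 0.01 (SE 0.18). Only 1 of the 3 transcripts of *pha-4* had counts, so its value rests on that transcript and may not reflect the whole gene. Of the body-wall muscle list 6 of 9 genes were tested, with *tni-1* (0.46), *pat-10* (0.46), *mup-2* (0.59) and *unc-27* (0.86), all thin filament regulators, above 0 and each with an unadjusted p under 0.05 in edgeR. The body-wall muscle transcription factors tested had log2 fold changes of -0.10 (standard error 0.17) for *unc-120* and -0.46 (SE 0.38) for *hnd-1*. In both muscle types the sarcomere genes tested had unadjusted p values under 0.05, all higher in KD, and the transcription factors tested did not. Of all transcripts tested, 8.8% had such a p value in this direction. The threshold was passed by 0 of the 10. Without KD replicate 4 the unadjusted p was under 0.05 for 1 gene of the pharyngeal list and 2 of the body-wall list, and without KD replicate 2 for 2 of the body-wall list. The difference between the 2 kinds of gene was not tested. Some defining genes of muscle had next to no counts here, with means per library of 0.62 for *hlh-1* (the MyoD homologue of body-wall muscle), 0.75 for *ceh-22* (an NK-2 factor of pharyngeal muscle) and 0 for *lev-11* (tropomyosin), each the most counted of several transcripts of its gene.

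The summed level of intestine markers varied across libraries in the way of the myosin chains, and the sums of germline and epidermis markers did not. The summed level of 7 intestine genes, all matched and none at 0 counts, was 2435 to 5372 CPM in KD and 1252 to 3298 CPM in control libraries. As with the myosin chains it was lowest in control replicate 2 and, among KD libraries, in replicate 3. Most of it came from *act-5*, *asp-1* and *vha-6*. Their means were 2116, 1625 and 478 CPM in KD and 973, 983 and 246 CPM in control embryos. *elt-2*, *ges-1* and *elt-7* had log2 fold changes of -0.0041, -0.049 and -0.23, and the other 4 genes had values above 0. Within each group the pharyngeal gland and neuronal sums had the same lowest libraries. They were 195 and 31.1 CPM in KD replicate 3, and 119 and 22.2 CPM in control replicate 2. The summed level of germline and maternal genes, 8 of 9 matched and *pgl-1* at 0 counts, was 168 to 217 CPM in KD libraries and 195 to 420 CPM in control libraries, with control replicate 2 the highest of the 8. The summed level of epidermis genes, 7 of 7 matched with *elt-1* and *elt-3* at 0 counts, was highest in KD replicate 3 and lowest in KD replicate 4. It was 530 to 889 CPM in KD and 560.0 to 874 CPM in control libraries. Most of it was *dpy-7*, with means of 628 CPM in KD and 640 CPM in control embryos, so the sum mainly reads this gene. *che-14* had a log2 fold change of 0.30 (SE 0.17), with 3 of 4 KD libraries above all controls. The part of differences in embryonic age or tissue make-up between cultures in the myosin levels was not tested.

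**Figure D5:**
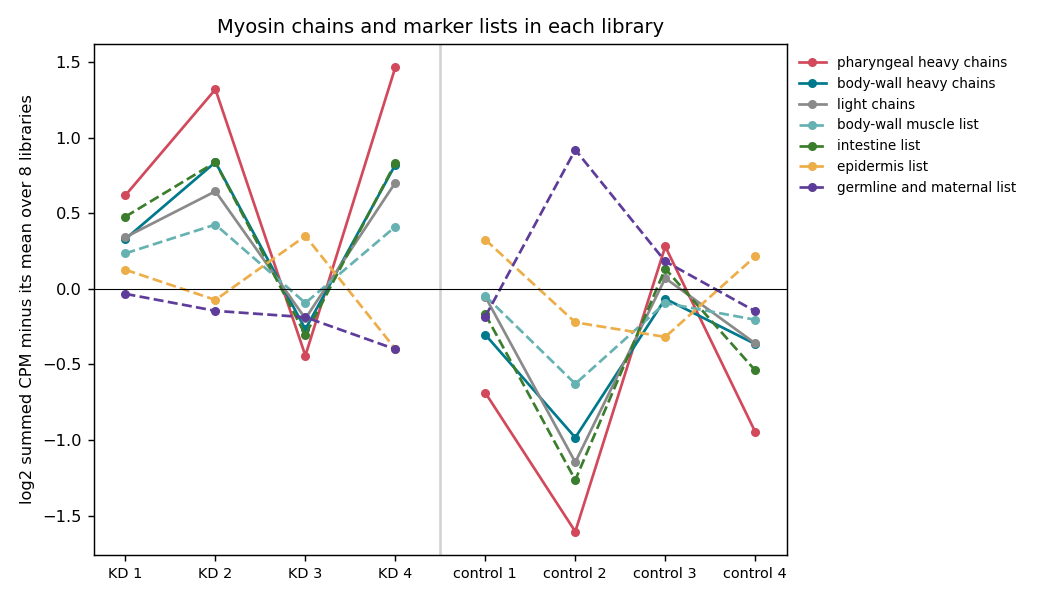
Log2 of the summed CPM of each gene set in each library, minus its mean over the 8 libraries, with KD libraries left of controls. Lines join the libraries of one set within a group only to guide the eye, since replicates have no order. The myosin sets and the intestine list have their lowest points in each group at KD replicate 3 and control replicate 2. The sums of the pharyngeal gland and neuronal lists, given in the text, were lowest in the same libraries. In control replicate 2 the germline and maternal list is at its highest, 420 CPM.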

How the data were processed

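RNA-seq of polyadenylated RNA was done on 4 *ztf-11* KD and 4 control libraries, grouped by their titles. The deposited values are raw counts of uniquely mapped reads per RefSeq transcript, which the authors made with Tophat2 (build ce10, after trimming of adaptors) and featureCounts. Versions, the strand setting and the rule for reads over several transcripts are not given in the sources used here. Symbols came from a RefSeq gene table of WBcel235 (45715 of 50606 transcripts, 87.7% of counts). Exon lengths came from the Ensembl annotation of WBcel235, a later build than ce10, so no coordinates are given.

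Counts were analysed in R 4.3.3 with edgeR 4.0.16 (filterByExpr with a minimum count of 10, TMM, glmQLFit with robust estimation, glmQLFTest, condition only) and Benjamini-Hochberg adjustment over all transcripts. Log2 CPM used a prior count of 2. Single genes were also compared with exact permutation tests over the 70 assignments of 8 libraries. Alternatives were DESeq2 1.42.0, other scalings, filters and counting units, a replicate block and each library left out. After the data were seen, 2 more were chosen, DESeq2 on transcripts with at least 1 count and the likelihood ratio test of edgeR. The tests were tested on simulated data. The genes named were the 8 chains, *ztf-11*, genes of the lists, and the 5 transcripts with the highest Pearson r with each heavy chain mean. The members and lists were chosen with earlier results of these data known. Between libraries of one group, chi-square over its degrees of freedom was 31.0 or more, so all were counted as separate. Sequences were not used here.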

Additional observations from a re-analysis of the deposited data

How the results depend on the processing

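The log2 fold changes of the 8 chains were above 0 in all 136 values from 17 alternatives. The count of transcripts past the threshold, 0 with edgeR's quasi-likelihood test (1832 at an unadjusted p under 0.05), was 433 with DESeq2, 435 with DESeq2 on transcripts with at least 1 count, 240 with the likelihood ratio test and 6 without the filter on low counts. With one library left out it was 0 to 3, namely 3 without control replicate 2 and 2 without control replicate 3. DESeq2 called *myo-1* (1.60), *myo-2* (1.57), *myo-5* (1.25) and *unc-54* (1.00), with the same rounded values and calls on transcripts with at least 1 count, and the likelihood ratio test called *myo-1* (1.61) and *unc-54* (1.02). The number of chains with an unadjusted p under 0.05 was 5 to 8 with one library left out, and the count of all transcripts was 891 without KD replicate 2 and 2980 without control replicate 3. With a replicate block it was 3 of 8 and the count over all transcripts fell to 708. Deviations from the group means had correlations of -0.64 to 0.0052 between same-numbered libraries, which shows no shared deviation. Whether same-numbered cultures were handled together cannot be told from these values. The cause of these shifts was not tested. At these depths the spread between cultures, not counting error, limits the precision.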

Other observations

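Genes of the intestine, the pharyngeal glands, neurons and the germline were read in the same way. Of the 7 intestine genes, the microvillar actin *act-5* was at 2116 ± 662 CPM in KD embryos, against 973 ± 395 CPM in control embryos, a log2 fold change of 1.12 ± 0.33 (SE), and the proton pump subunit *vha-6* had 0.96 (SE 0.29). The intestinal GATA factors *elt-2* and *elt-7* had log2 fold changes of -0.0041 (standard error 0.12) and -0.23 (SE 0.22). Of the 4 pharyngeal gland genes, *phat-4* was at 155.5 ± 63.1 CPM in KD embryos, against 66.3 ± 37.3 CPM in control embryos (SD, n = 4 each), and the gland transcription factor *hlh-6* at 17.5 ± 2.26 CPM in KD embryos, against 21.9 ± 3.12 CPM in control embryos. Of the 5 neuronal genes tested, all had log2 fold changes above 0 (median 0.34) with 0 under an unadjusted p of 0.05 by edgeR. Of the 6 germline and maternal genes tested, all had values below 0 (median -0.59), 0 with an unadjusted p under 0.05. In these lists 0 genes passed the threshold of an adjusted p under 0.1.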
